A study of Drosophila melanogaster with 72 samples.

Results

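Tep1, Tep2, Tep3 and Tep4, the Nimrod genes NimB1, NimB2, NimB4, NimB5 and NimC1, and the scavenger receptor gene Sr-CI are 10 genes of the cellular and humoral defence in the fly's blood, the hemolymph. They were taken by symbol from the 13925 features common to the 3 deposited count tables, and all 10 were found there. Earlier results of the same data were known when they were picked, in particular the total RNA levels of Tep2, NimB2 and Sr-CI in 4 groups that combine an Lsp2 allele with the presence or absence of Thor[2]. The values of those 4 groups are therefore given as a description, with no p-value, while age, the Lpp[TS] lines and the ribosome fractions averaged over groups were tested. The tests of age and of the fractions at 15 d include libraries of those groups, so their p-values are not independent of how the genes were picked.

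Whole female Drosophila melanogaster were ground, and total RNA, a monosome fraction (mRNA with a single ribosome) and a polysome fraction (mRNA with several ribosomes) from a sucrose gradient were sequenced after poly(A) selection, in 72 libraries. At 15 d of age, flies with Thor[2] carried either Lsp2[A10] or Lsp2[B14], and flies without Thor[2] carried the same alleles (3 biological replicates per group). The allele lines without Thor[2] were also sampled at 2-3 d, called young here, again with 3 replicates. Another set of lines, all at 15 d with 2 replicates, shares the element Lpp[TS] and differs in what follows the sign: Lpp[TS]>Lsp2 and Lpp[TS]>Rheb were set against Lpp[TS]>w1118. Lsp2 encodes a larval serum storage protein, Rheb a GTPase that activates the growth kinase complex TORC1, Thor the translation repressor 4E-BP, and Lpp the fat body lipoprotein precursor. The labels do not describe the alleles A10 and B14 or name either as a control, and changes between them are given as A10 relative to B14.

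Thioester proteins are secreted relatives of vertebrate complement C3 and alpha-2-macroglobulin, and several of them are known to be induced on infection and to promote the uptake of microbes. Nimrod proteins carry repeats of an EGF-like module. NimC1 is a receptor for phagocytosis on plasmatocytes, the macrophage-like blood cells of the fly, while the B-type members are secreted. Among these, NimB4 binds apoptotic cells and helps their clearance, and NimB5 is released by the fat body of larvae and restrains blood cell adhesion and proliferation. Sr-CI is a scavenger receptor of blood cells that binds bacteria.

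All 10 genes lie on the left arm of chromosome 2, 2L, in the BDGP6.54 annotation. Sr-CI (FBgn0014033) occupies 2L:4121702-4124153 on the plus strand. Tep2 (FBgn0041182), at 2L:7693727-7701601 on the minus strand, ends 1.2 kb before the start of Tep3 (FBgn0041181), at 2L:7702805-7710690 on the plus strand. The 5 Nimrod genes sit within 13.3 kb, in the order NimB1 (FBgn0027929, 2L:13963507-13965088, plus), NimB2 (FBgn0028543, 2L:13965012-13967018, minus), NimB4 (FBgn0028542, 2L:13968280-13969976, minus), NimB5 (FBgn0028936, 2L:13970177-13972173, plus) and NimC1 (FBgn0259896, 2L:13973158-13976769, minus). Tep1 (FBgn0041183) and Tep4 (FBgn0041180) stand alone, at 2L:15888640-15893811 on the minus strand and 2L:19548507-19556451 on the plus strand. Thor is on the same arm, at 2L:3478434-3479612, so the distance to Thor ran from 0.64 Mb (megabases) for Sr-CI to 16.07 Mb for Tep4. The strand setting of the deposited counts is not given in the sources used here. Reads could therefore have been shared where exons on opposite strands overlap, over 77 bp between NimB1 and NimB2, 78 bp between NimB5 and He, 95 bp between Tep2 and CG43235 and 1261 bp between Tep3 and asRNA:CR44990.

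Total RNA libraries held 15.3 to 39.7 M counts, monosome libraries 5.07 to 21.3 M and polysome libraries 3.13 to 31.3 M. Thor RNA was not lower in the libraries labelled Thor[2], at 253 to 364 CPM (counts scaled to equal library totals) with A10 and 257 to 309 CPM with B14, against 221 to 291 CPM in Lsp2[A10] and 248 to 286 CPM in Lsp2[B14] at 15 d. What the counted Thor reads come from is not given, and these groups are called by their labels throughout. Plasmatocyte markers were detected in every group: none of the 8 (Hml, Pxn, He, srp, Col4a1, vkg, eater and crq) was at 0. Their summed level ran from 459 to 1233 CPM over the 24 total RNA libraries. In RNA of whole flies the cells that gave the reads are not known. Fewer cells of a type and less RNA per cell cannot be told apart.

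NimB2 and Tep4 were the most abundant of the 10 per length of transcript. The median over the 24 total RNA libraries, in RPKM (CPM per kilobase of exon), was 29.3 for NimB2, 18.5 for Tep4, 7.95 for Tep2, 6.54 for NimB5, 6.45 for Sr-CI, 5.02 for NimC1, 4.76 for NimB4, 2.52 for Tep3 and 2.33 for NimB1. Tep1 had a median of 0.093 RPKM and 0 to 32 counts per total RNA library, so its fitted values rest on few counts.

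**Figure D1:**
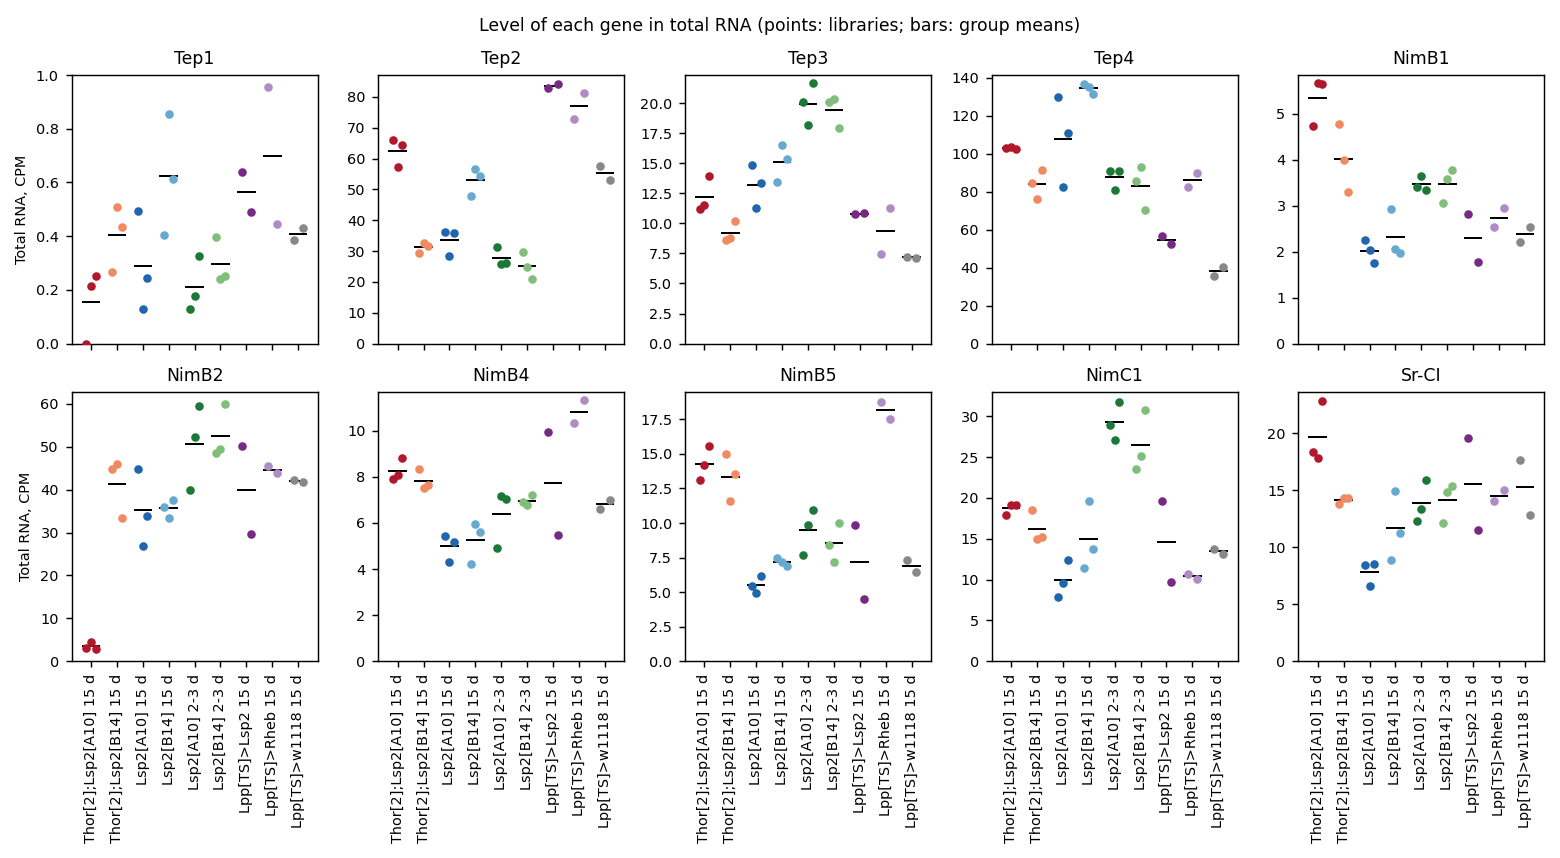
Total RNA level (CPM, linear axes from 0) of the 10 genes in the 24 total RNA libraries; points are libraries, bars are means of 3 (allele lines) or 2 (Lpp[TS] lines). NimB2 lies between 2.88 and 4.55 CPM in the libraries labelled Thor[2];Lsp2[A10] and between 26.9 and 59.9 CPM in every other library.

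NimB2 was far lower in a single group, though still measurable. It reached 3.14, 4.55 and 2.88 CPM in total RNA of flies labelled Thor[2];Lsp2[A10] (67 to 106 counts), against 44.9, 46.0 and 33.3 CPM with Thor[2];Lsp2[B14], 44.8, 26.9 and 33.8 CPM in Lsp2[A10] and 35.9, 33.5 and 37.7 CPM in Lsp2[B14]. The Thor[2];Lsp2[A10] libraries did not overlap with any other, while the other 3 groups overlapped. The mean of 3.52 ± 0.895 CPM (SD, n = 3) was 9.98-fold lower than in Lsp2[A10] (35.2 ± 9.03 CPM, n = 3) and 11.8-fold lower than with Thor[2];Lsp2[B14] (41.4 ± 7.07 CPM, n = 3). Between the groups with B14, the fitted log2 change with Thor[2] was 0.36 ± 0.19 (SE). In groups outside this design NimB2 stayed at 29.6 to 59.9 CPM. The order of the means ran from 52.6 and 50.5 CPM in young Lsp2[B14] and Lsp2[A10] down to 35.7 and 35.2 CPM in the same lines at 15 d, with overlap between most neighbours in that order. Groups in this order come from different count tables, which cannot be told apart from age or set of lines.

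The same low level was read from both ribosome fractions, which were separate libraries of the same powders. In polysomes NimB2 had 3.61, 4.64 and 5.61 CPM in Thor[2];Lsp2[A10] and 68.8, 65.7 and 53.5 CPM in Thor[2];Lsp2[B14], against 86.5, 104.8 and 97.9 CPM in Lsp2[A10], and 117.9, 133.1 and 115.9 CPM in Lsp2[B14]. In monosomes it had 8.86, 9.99 and 7.47 CPM in Thor[2];Lsp2[A10] and 37.7 to 45.4 CPM in Thor[2];Lsp2[B14], against 58.8 to 72.1 CPM in Lsp2[A10] and 66.2 to 70.8 CPM in Lsp2[B14]. In total RNA the B14 groups with and without Thor[2] overlapped, but in both ribosome fractions the libraries labelled Thor[2];Lsp2[B14] lay below those of Lsp2[B14].

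NimB1 and NimB3, the measured genes with the nearest starts to NimB2, were not lower in that group than without Thor[2]. NimB1, whose transcript ends inside NimB2, had 4.74, 5.66 and 5.66 CPM in Thor[2];Lsp2[A10] and 4.78, 4.0 and 3.30 CPM in Thor[2];Lsp2[B14], against 2.26, 2.04 and 1.76 CPM in Lsp2[A10] and 2.94, 2.06 and 1.97 CPM in Lsp2[B14]. NimB3, another secreted Nimrod, starts 2.45 kb from NimB2 and averaged 11.4 CPM in Thor[2];Lsp2[A10], 12.4 CPM in Thor[2];Lsp2[B14], 3.41 CPM in Lsp2[A10] and 3.92 CPM in Lsp2[B14]. Both neighbours were thus higher in the groups labelled Thor[2], with either allele. Of the 10 other genes measured within 25 kb of NimB2, the fitted log2 change with Thor[2] in the A10 lines ran from -0.07 for rk, the bursicon receptor, to 1.95 for NimB3, while NimB2 itself was at -3.12 ± 0.22 (SE). Of 10354 genes fitted, 27 had a more negative value in that comparison. Vajk3, at -20.26 kb from the start of NimB2, was at 0.06 ± 0.65 (SE) there. Between the alleles with Thor[2], the log2 of A10 over B14 for the same 10 genes ran from -2.08 for Vajk3 to 0.79 for NimC2. NimB2 was at -3.55 ± 0.22 (SE) between the alleles.

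**Figure D2:**
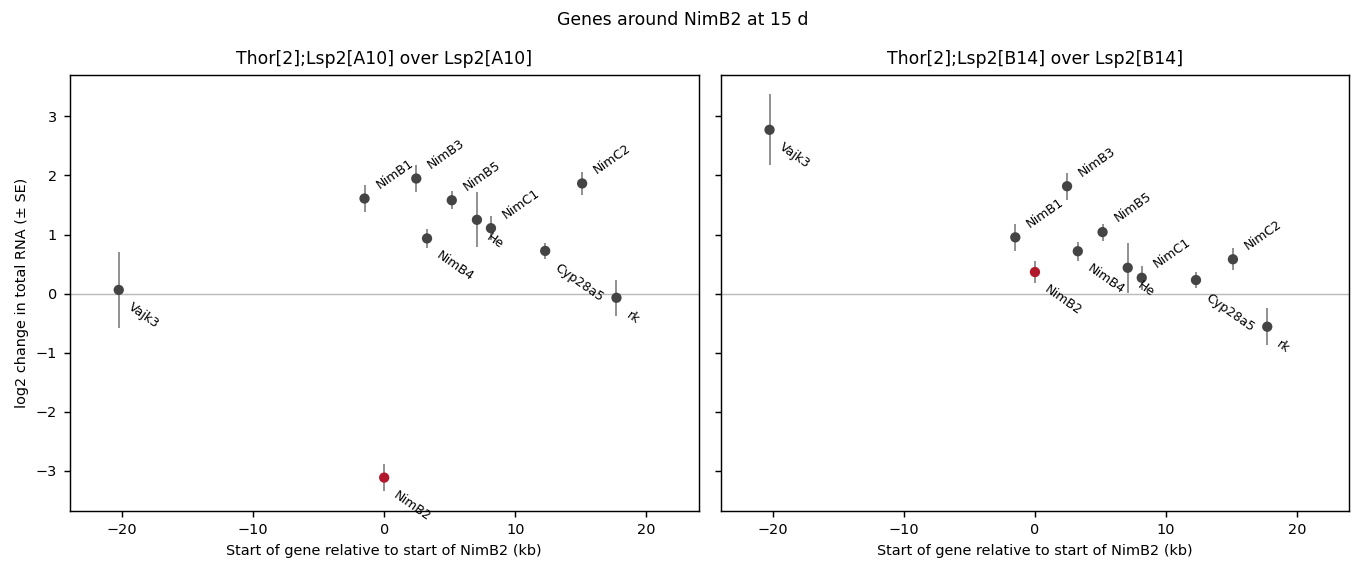
Fitted log2 change of total RNA with Thor[2] (y axis, ± SE) in the A10 lines (left) and the B14 lines (right) for NimB2 (red) and the 10 other measured genes starting within 25 kb, placed by the distance of their start from that of NimB2 (x axis, kb). In the A10 lines NimB2 is at -3.12 and the other genes at -0.07 or above, and in the B14 lines NimB2 is at 0.36 among its neighbours.

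The other B-type Nimrod genes, all secreted, were higher with Thor[2] in both allele backgrounds. NimB5 had 13.1, 14.2 and 15.6 CPM in Thor[2];Lsp2[A10] and 15.0, 11.6 and 13.5 CPM in Thor[2];Lsp2[B14], against 5.42, 4.92 and 6.14 CPM in Lsp2[A10] and 7.49, 7.15 and 6.86 CPM in Lsp2[B14]. NimB4 had 7.92, 8.06 and 8.83 CPM in Thor[2];Lsp2[A10] and 8.35, 7.53 and 7.63 CPM in Thor[2];Lsp2[B14], against 5.42, 4.32 and 5.20 CPM in Lsp2[A10] and 4.23, 5.94 and 5.60 CPM in Lsp2[B14]. For both genes the libraries with and without Thor[2] did not overlap. The fitted log2 changes with Thor[2] were 1.61 ± 0.23, 0.93 ± 0.17 and 1.58 ± 0.15 for NimB1, NimB4 and NimB5 in the A10 lines, and 0.95 ± 0.22, 0.72 ± 0.16 and 1.04 ± 0.14 in the B14 lines (SE).

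Both receptor genes were higher with Thor[2] in the A10 lines, without overlap, while in the B14 lines the groups overlapped. Sr-CI had 18.3, 17.9 and 22.8 CPM in Thor[2];Lsp2[A10], against 8.42, 6.61 and 8.55 CPM in Lsp2[A10]. With B14 it had 13.8, 14.3 and 14.3 CPM with Thor[2], within the range of 8.86, 14.9 and 11.3 CPM in Lsp2[B14]. The means differed 2.50-fold in the A10 lines and 1.21-fold in the B14 lines, and the fitted log2 changes were 1.53 ± 0.18 and 0.42 ± 0.18 (SE). NimC1 had 17.9, 19.1 and 19.1 CPM in Thor[2];Lsp2[A10], against 7.92, 9.58 and 12.4 CPM in Lsp2[A10]. With B14 it had 18.5, 15.0 and 15.2 CPM with Thor[2], and the spread in Lsp2[B14], at 11.4, 19.6 and 13.8 CPM, took in all of these values. The fitted log2 changes of NimC1 with Thor[2] were 1.11 ± 0.21 in the A10 lines and 0.27 ± 0.20 in the B14 lines, and the difference between these changes, 0.84 ± 0.29 (SE), did not pass the all-gene threshold.

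Among the thioester genes, Tep2 was higher with Thor[2] in the A10 lines and lower in the B14 lines. Tep2 had 66.1, 57.1 and 64.4 CPM in Thor[2];Lsp2[A10], against 36.3, 28.5 and 35.8 CPM in Lsp2[A10]. With B14 it had 29.4, 32.8 and 31.6 CPM with Thor[2], against 47.8, 56.5 and 54.5 CPM in Lsp2[B14]. The mean was thus 1.87-fold higher with Thor[2] in the A10 lines and 1.69-fold lower with Thor[2] in the B14 lines, with no overlap in either case. The group means fell into a high pair, 62.5 ± 4.74 CPM in Thor[2];Lsp2[A10] and 53.0 ± 4.59 CPM in Lsp2[B14] (SD, n = 3 each), and a low pair, 31.3 ± 1.69 CPM in Thor[2];Lsp2[B14] and 33.5 ± 4.37 CPM in Lsp2[A10]. The groups of the low pair overlapped and those of the high pair did not.

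Tep3 and Tep4 were lower with Thor[2] in the B14 lines. Tep4, the most abundant thioester gene, had 84.4, 76.0 and 91.2 CPM in Thor[2];Lsp2[B14], against 137, 135 and 131 CPM in Lsp2[B14]. In the A10 lines it had 103, 104 and 102 CPM with Thor[2], inside the wide range of 130, 82.2 and 111 CPM in Lsp2[A10]. Tep3 had 8.65, 8.81 and 10.2 CPM in Thor[2];Lsp2[B14], against 13.4, 16.5 and 15.4 CPM in Lsp2[B14], and in the A10 lines 11.2, 11.5 and 13.9 CPM with Thor[2] overlapped 14.9, 11.2 and 13.3 CPM in Lsp2[A10]. The fitted log2 changes in the B14 lines were -0.62 ± 0.11 for Tep2, -0.57 ± 0.14 for Tep3 and -0.54 ± 0.13 for Tep4 (SE). In the A10 lines Tep3 and Tep4 were at 0.10 and 0.14, values that turned to -0.11 and -0.06 when libraries were scaled by their totals.

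Counted over the list, 6 of the 10 genes were higher and 1, NimB2, was lower past the all-gene threshold (edgeR, adjusted p of 0.05) with Thor[2] in the A10 lines, where 66.8% of all 10354 genes passed it, 34.4% upward and 32.3% downward. Upward calls made up 51.6% of all calls there, and 39.8% with scaling by library totals. In the B14 lines 4 were higher and 3, all thioester genes, were lower, and 69.2% of all genes passed, 35.2% upward and 34% downward. The median of the 10 log2 changes was 1.02 in the A10 lines and 0.32 in the B14 lines, beside 0.04 and 0.03 over all genes. Members were chosen on these groups and most of the transcriptome moved with them, so nothing is read from these counts.

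Between the alleles, the difference with Thor[2] passed the threshold for Tep2 (log2 A10 over B14 of 1.02 ± 0.11, SE) and NimB2 (-3.55 ± 0.22), 2 of 10 where 4.16% of all genes passed, 2.4% upward and 1.77% downward. Without Thor[2], Tep2 alone passed, at -0.71 ± 0.11, where 2.21% passed and 2.05% passed downward, and the other 9 genes were all below 0 with a median of the 10 at -0.40, beside 0.02 over all genes. The term for the difference between the effects of Thor[2] in the A10 and B14 lines passed for Tep2 (1.72 ± 0.15), Tep4 (0.68 ± 0.18), NimB2 (-3.48 ± 0.29) and Sr-CI (1.11 ± 0.25), 4 of 10 where 4.1% passed, 3.05% upward and 1.04% downward (74.5% of calls upward, 63.2% with library totals). It passed for only 2 genes when replicate 2 of Lsp2[A10], 2 or 3 of Lsp2[B14], 3 of Thor[2];Lsp2[A10] or 2 of Thor[2];Lsp2[B14] was left out. These 4 comparisons and the term share the same 12 libraries, so their values are not independent of each other, and nothing is read from their counts for genes that were picked on these libraries.

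Genes of the same families and of linked pathways moved both ways in the groups labelled Thor[2]. Of the 13 other thioester, Nimrod and scavenger receptor genes looked at, 10 passed the filter on low counts. With Thor[2], 4 were higher and 4 lower in the A10 lines, and likewise in the B14 lines, and the largest were NimB3 (log2 1.95 in A10, 1.82 in B14), the phagocytic Nimrod NimC2 (1.87 in A10), NimC4 (2.94 in B14) and Mcr, the complement-related protein of septate junctions (-1.48 in A10, -1.45 in B14). Of 12 JAK/STAT genes, the pathway known to induce several thioester genes, 4 were higher and 4 lower in the A10 lines and 3 higher and 4 lower in the B14 lines, with the stress peptides TotM (2.50 and 1.75) and TotA (1.84 and 1.71) high and the kinase hop (-1.32 and -1.46) low in A10 and B14. Of 19 Toll pathway genes, 10 were higher and 5 lower in A10 and 9 higher and 7 lower in B14, led by the secreted peptides BomS1 (2.3 in A10, 1.71 in B14) and BomS2 (2.26 in A10). Over all genes, 34.4% were higher and 32.3% lower in the A10 lines and 35.2% and 34% in the B14 lines.

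Cell type markers moved with the same groups. The summed level of the 8 plasmatocyte markers was 543 to 633 CPM in Thor[2];Lsp2[A10] and 467 to 627 CPM in Thor[2];Lsp2[B14], against 610 to 787 CPM in Lsp2[A10] and 729 to 923 CPM in Lsp2[B14]. In the A10 lines He, eater and Pxn were higher past the threshold and 1 marker was lower. In the B14 lines 5 were lower, led by Hml at -1.21, and none was higher. Over all genes 66.8% passed in the A10 lines, 34.4% higher and 32.3% lower. In the B14 lines 69.2% passed, 35.2% higher and 34% lower, so nothing is read from the counts of markers called. The 3 lamellocyte markers summed to 130.5 to 135.3 CPM in Thor[2];Lsp2[A10] and 96 to 123 CPM in Thor[2];Lsp2[B14], against 55 to 69 CPM in Lsp2[A10] and 52 to 62 CPM in Lsp2[B14]. Of these 3, atilla alone was higher past the threshold in either line (log2 1.42 in A10 and 1.21 in B14), and the median log2 change was 0.45 in the A10 lines and -0.12 in the B14 lines. The 4 ovary markers summed to 245 to 249 CPM and 192 to 251 CPM in the A10 and B14 lines with Thor[2], against 433 to 500 CPM and 415 to 500 CPM in Lsp2[A10] and Lsp2[B14]. The 3 crystal cell markers, all higher past the threshold in the A10 lines and none in the B14 lines, summed to 20.6 to 28.1 CPM in Thor[2];Lsp2[A10] and 24.1 to 25.4 CPM in Thor[2];Lsp2[B14], against 14.1 to 20.6 CPM in Lsp2[A10] and 15.6 to 27.5 CPM in Lsp2[B14]. The 5 fat body markers measured summed to 2638 to 3038 CPM in Thor[2];Lsp2[A10] and 2451 to 3007 CPM in Thor[2];Lsp2[B14], against 3012 to 3940 CPM in Lsp2[A10] and 3385 to 4367 CPM in Lsp2[B14].

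In Thor[2];Lsp2[A10] the yolk protein sum did not overlap with the other 3 of these groups, and the sum of early embryonic genes overlapped with Lsp2[A10] only. Genes of the early zygotic embryo, 8 in all, summed to 5.63 to 16.2 CPM in Thor[2];Lsp2[A10] and 1.89 to 3.31 CPM in Thor[2];Lsp2[B14], against 3.03 to 6.91 CPM in Lsp2[A10] and 1.57 to 4.41 CPM in Lsp2[B14]. Of the 6 that passed the filter, 4 were higher with Thor[2] in the A10 lines, where 34.4% of all genes were higher. In the B14 lines 0 were, where 35.2% of all genes were higher. Among flies with Thor[2], term, bnk and ftz were higher with A10 than with B14 (log2 5.31, 5.24 and 3.20), where 2.4% of all genes were higher. The 3 yolk protein genes summed to 28120 to 30490 CPM in Thor[2];Lsp2[A10] and 20170 to 21510 CPM in Thor[2];Lsp2[B14], against 14440 to 23660 CPM in Lsp2[A10] and 18180 to 20050 CPM in Lsp2[B14]. The part of any of these lists in the values of the 10 genes was not tested.

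**Figure D3:**
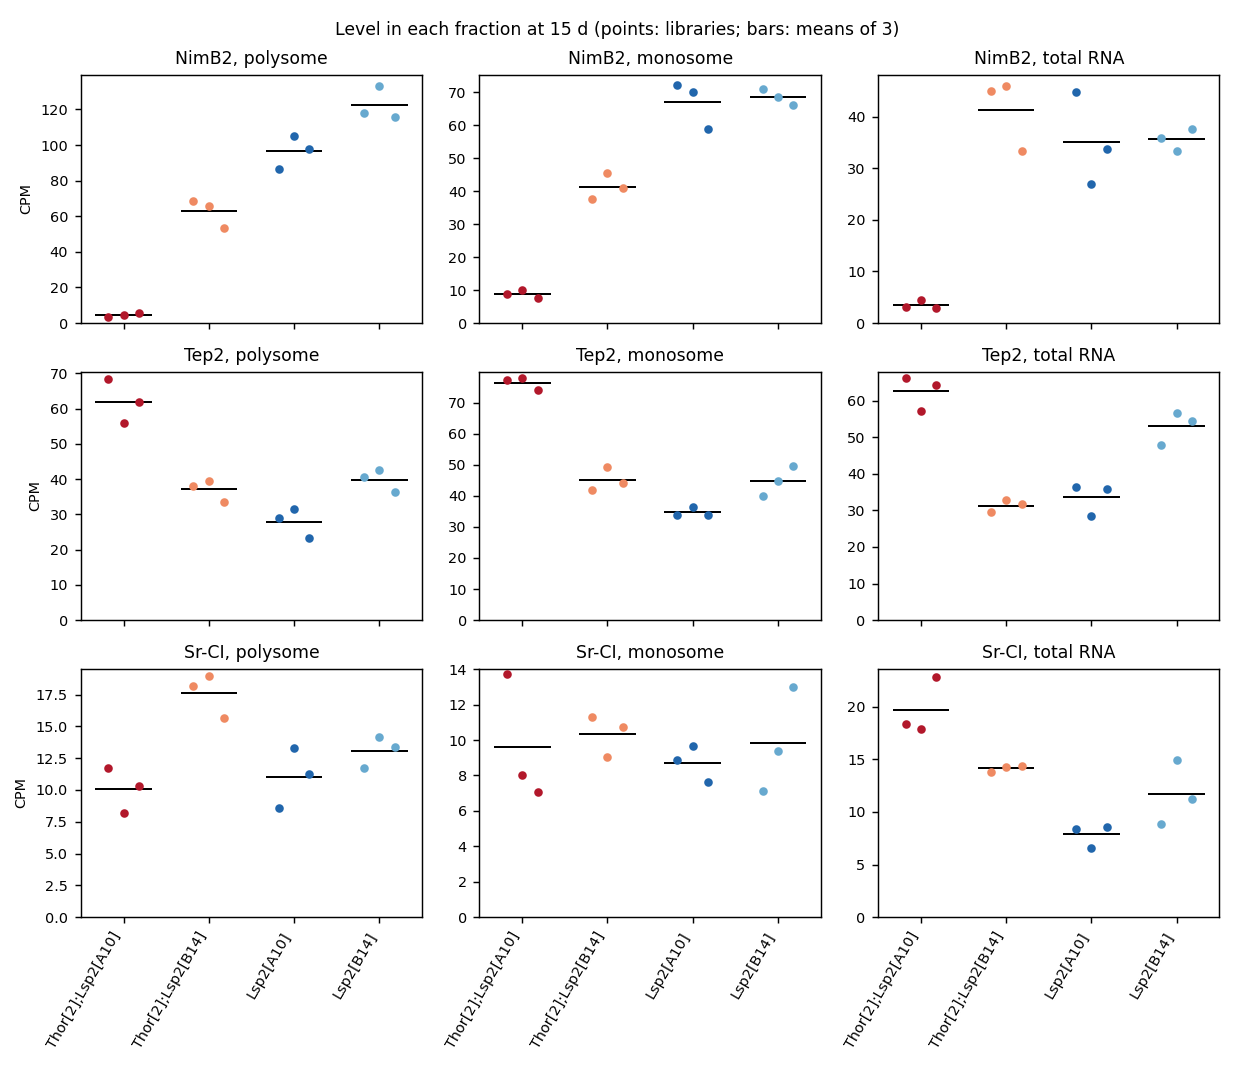
Level (CPM, linear axes from 0) of NimB2, Tep2 and Sr-CI (rows) in polysome, monosome and total RNA libraries (columns) of the 4 groups at 15 d; points are libraries and bars means of 3. NimB2 is low in all 3 fractions of Thor[2];Lsp2[A10], and Sr-CI, high in total RNA of that group at 17.9 to 22.8 CPM, is at 8.17 to 11.7 CPM in its polysomes.

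In the A10 lines, the higher total RNA of Sr-CI and of NimC1, NimB1, NimB4 and NimB5 with Thor[2] was not seen in polysomes. Sr-CI had 11.7, 8.17 and 10.3 CPM in polysomes of Thor[2];Lsp2[A10], within 8.61, 13.3 and 11.2 CPM in Lsp2[A10] apart from its lowest library. NimC1 had 6.02, 5.41 and 5.81 CPM in polysomes of Thor[2];Lsp2[A10], below 8.61, 13.5 and 10.0 CPM in Lsp2[A10]. NimB1 had 2.26, 1.66 and 1.96 CPM in polysomes of Thor[2];Lsp2[A10], against 2.87, 3.66 and 3.03 CPM in Lsp2[A10]. NimB4 had 5.72, 5.41 and 6.08 CPM in polysomes of Thor[2];Lsp2[A10], below 9.25, 9.92 and 8.95 CPM in Lsp2[A10], and NimB5, at 3.51, 2.32 and 3.11 CPM in Thor[2];Lsp2[A10], overlapped 2.87, 3.43 and 2.84 CPM in Lsp2[A10]. NimC1, NimB1 and NimB4 thus lay in the reverse of their order in total RNA. Translational efficiency, the polysome level relative to total RNA of the same gene, was accordingly lower with Thor[2] in the A10 lines for the 5 Nimrod genes and Sr-CI, with log2 changes of -2.04 ± 0.35 for NimB1, -1.77 ± 0.33 for NimC1, -1.42 ± 0.27 for Sr-CI, -1.36 ± 0.25 for NimB4, -1.33 ± 0.27 for NimB5 and -1.01 ± 0.29 for NimB2 (SE). All 6 passed the all-gene threshold, which 41% of genes passed, 18% upward and 23% downward. The ratio uses total RNA libraries on which the genes were picked, so nothing is read from this count.

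In the B14 lines the efficiency was lower past the threshold for NimB1 (-1.62 ± 0.33), NimB4 (-1.26 ± 0.24) and NimB2 (-1.22 ± 0.25), and higher for Tep3 (0.92 ± 0.23) and Tep2 (0.62 ± 0.18), where 43.6% of genes passed, 20.3% upward and 23.3% downward. Tep1 passed as well, on 0 to 24 counts a library. NimB5 and Sr-CI were higher with Thor[2] in the polysomes of the B14 lines too. NimB5 had 3.88, 4.82 and 4.11 CPM in Thor[2];Lsp2[B14], against 2.21, 2.95 and 3.34 CPM in Lsp2[B14], and Sr-CI had 18.2, 19.0 and 15.7 CPM in Thor[2];Lsp2[B14], against 11.7, 14.2 and 13.3 CPM in Lsp2[B14], with no overlap for either gene. The lower total RNA of Tep2 with Thor[2] was not seen in polysomes of the B14 lines, which held 38.2, 39.4 and 33.6 CPM in Thor[2];Lsp2[B14], overlapping 40.5, 42.5 and 36.4 CPM in Lsp2[B14]. The higher Tep2 RNA in Thor[2];Lsp2[A10] was seen there, at 68.3, 55.9 and 62.0 CPM in polysomes against 29.0, 31.4 and 23.3 CPM in Lsp2[A10]. The counts in the B14 lines also use total RNA libraries on which the genes were picked, so nothing is read from them. Whether the efficiency changes differ between the allele lines was not tested.

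In young flies the alleles could not be distinguished at any of the genes. Of 9 genes that passed the filter on low counts (Tep1 did not), 0 were called by edgeR's quasi-likelihood test with Benjamini-Hochberg adjustment, 0 had an unadjusted p under 0.05 and 0 were called by DESeq2, where 0.332% of all genes were called. The fitted log2 differences, A10 over B14, ran from -0.12 to 0.15 with SE from 0.10 to 0.19. NimB2 had 39.9, 52.3 and 59.5 CPM in young Lsp2[A10] and 48.5, 49.4 and 59.9 CPM in young Lsp2[B14]. Tep2 had 31.4, 25.7 and 26.3 CPM in young Lsp2[A10] and 29.6, 24.9 and 20.9 CPM in young Lsp2[B14], so the groups overlapped for both genes. None of the other family, JAK/STAT, Toll or marker genes was called either.

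Translational efficiency in young flies was lower with A10 for NimC1 and Sr-CI only in the fit that keeps the fractions of a powder together. Polysomes held 11.3, 10.7 and 14.9 CPM of Sr-CI in young Lsp2[A10], and 14.5, 21.0 and 18.1 CPM in young Lsp2[B14], with nearly equal total RNA (12.4, 13.4 and 15.9 CPM in A10, 12.1, 14.9 and 15.4 CPM in B14). NimC1 had 13.5, 12.6 and 15.2 CPM in polysomes of young Lsp2[A10] and 14.9, 17.7 and 18.1 CPM in young Lsp2[B14]. Without the pairing, 0 of 9 genes were called by edgeR and 0 by DESeq2, 2 had an unadjusted p under 0.05, and 0.0687% of all genes were called, 0.0589% upward and 0.00982% downward. With the replicate block, NimC1 (log2 -0.57, adjusted p = 0.0239) and Sr-CI (-0.64, adjusted p = 0.0244) were called by edgeR, 2 of 9 where 15.6% of all genes were called with the block.

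With age, NimC1, NimB1, NimB2, NimB4 and Tep3 fell in both lines, and NimB5 and Sr-CI fell in Lsp2[A10]. NimC1 fell most: Lsp2[A10] had 7.92, 9.58 and 12.4 CPM at 15 d, against 29.0, 27.1 and 31.8 CPM in young flies, and Lsp2[B14] had 11.4, 19.6 and 13.8 CPM at 15 d, against 23.5, 25.1 and 30.7 CPM in young flies. The ages did not overlap in either line. In Lsp2[A10], 7 of 10 genes were called lower and none higher, where 44.6% of all genes were called, 20.8% higher and 23.8% lower (46.6% of calls higher, 68.0% with library totals). They were NimC1 (log2 -1.71 ± 0.21, SE, edgeR adjusted p = 4.13e-05), Sr-CI (-0.98 ± 0.20, adjusted p = 0.00157), NimB5 (-0.95 ± 0.18, adjusted p = 0.00112), NimB1 (-0.94 ± 0.21, adjusted p = 0.00307), Tep3 (-0.76 ± 0.12, adjusted p = 0.000368), NimB2 (-0.69 ± 0.18, adjusted p = 0.00848) and NimB4 (-0.53 ± 0.19, adjusted p = 0.0357). The median log2 change of the 10 was -0.72, beside -0.01 over all genes. The 15 d levels of NimB2 and Sr-CI were known when the genes were picked. The p-values of both with age are therefore not independent of that choice. The call of NimB4 was kept in 6 of 12 alternatives in each line.

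Tep2 and Tep4 went the other way, in Lsp2[B14]. Tep2 had 47.8, 56.5 and 54.5 CPM at 15 d, against 29.6, 24.9 and 20.9 CPM in young flies, and Tep4 had 137, 135 and 131 CPM at 15 d, against 85.8, 93.0 and 70.5 CPM in young flies. Both rose, Tep2 by a log2 change of 0.98 ± 0.12 (adjusted p = 6.55e-05) and Tep4 by 0.59 ± 0.14 (adjusted p = 0.00553), in a comparison that called 38.1% of all genes and 18.3% upward. The 15 d levels of Tep2 in these lines were known when the genes were picked, so its p-values with age are not independent of that choice. In Lsp2[A10] neither was called, at 0.12 ± 0.13 for Tep2 (adjusted p = 0.455) and 0.14 ± 0.14 for Tep4 (adjusted p = 0.428). The difference between the lines in the change with age was not tested. Without replicate 3 of young Lsp2[B14], 4 of 10 genes were called in Lsp2[B14]. The 5 genes that fell in Lsp2[B14] were NimC1 (-0.95 ± 0.20, adjusted p = 0.003), NimB1 (-0.71 ± 0.20, adjusted p = 0.0156), NimB2 (-0.68 ± 0.18, adjusted p = 0.011), NimB4 (-0.52 ± 0.18, adjusted p = 0.04) and Tep3 (-0.47 ± 0.12, adjusted p = 0.00866), where 19.8% of all genes were called lower (48.1% of calls were higher, 66.2% with library totals), while NimB5 and Sr-CI were at -0.37 (adjusted p = 0.113) and -0.39 (adjusted p = 0.116).

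**Figure D4:**
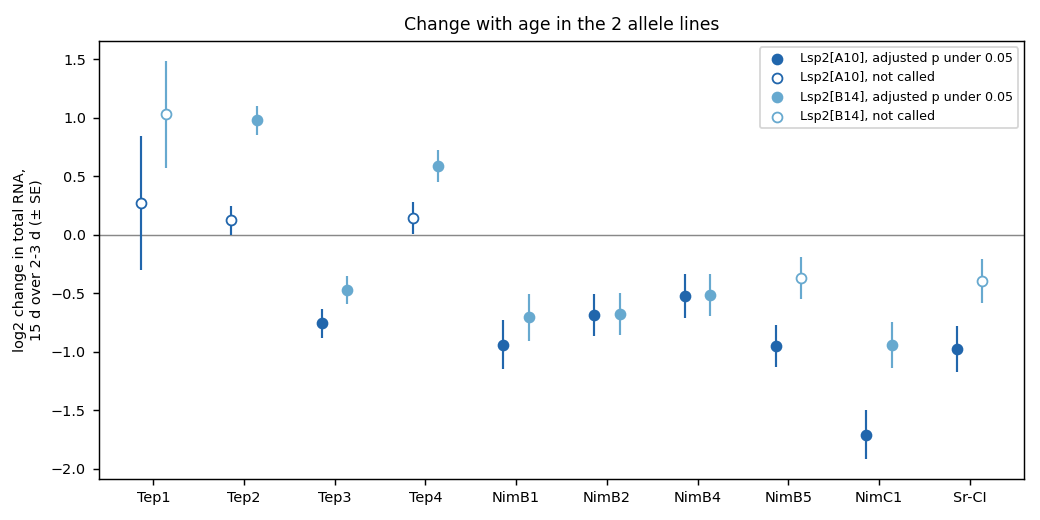
Fitted log2 change of total RNA between 15 d and 2-3 d (y axis, ± SE) for the 10 genes (x axis) in Lsp2[A10] (dark blue) and Lsp2[B14] (light blue); filled points have an edgeR adjusted p under 0.05. Tep3, NimC1 and the NimB genes lie below 0 in both lines, and Tep2 and Tep4 are above 0, filled in Lsp2[B14] only.

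Most plasmatocyte markers were lower at 15 d in Lsp2[A10]. There 6 of 8 fell, where 23.8% of all genes did, led by Col4a1 (log2 -1.39), eater (-1.27) and vkg (-1.22), and in Lsp2[B14] 4 of 8 fell, where 19.8% of all genes did, led by Col4a1 (-1.0), vkg (-0.91) and eater (-0.78). Their summed level was 610 to 787 CPM in Lsp2[A10] and 729 to 923 CPM in Lsp2[B14] at 15 d, against 1149 to 1160 CPM and 1108 to 1233 CPM in young flies of A10 and B14. Of 10 other family genes that passed the filter, 2 were higher and 4 lower in A10, 2 higher and 3 lower in B14. Over all genes, 20.8% were higher and 23.8% lower in A10, and 18.3% and 19.8% in B14. The Nimrod genes NimC2 (-0.95 in A10, -0.94 in B14) and NimC4 (-1.42 in A10, -3.15 in B14) were among those that fell. Of the 3 crystal cell markers 2 rose in each line, PPO1 (2.11 in A10, 2.74 in B14) and PPO2 (1.63 in A10, 1.59 in B14). The part of the markers in the fall of the Nimrod genes was not tested. Age and count table cannot be told apart, because each table holds a single age of the allele lines.

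Relative to Lpp[TS]>w1118, Lsp2 RNA was higher by 10.46 (log2) in Lpp[TS]>Lsp2 and by 9.01 in Lpp[TS]>Rheb, and Rheb RNA by 2.93 in Lpp[TS]>Rheb. Among the 10 genes, Tep4 stood out. Tep4 had 82.3 and 90.1 CPM in Lpp[TS]>Rheb and 56.5 and 52.5 CPM in Lpp[TS]>Lsp2, against 35.9 and 40.6 CPM in Lpp[TS]>w1118, with no overlap between the 3 lines. It rose in Lpp[TS]>Rheb by a log2 change of 1.23 ± 0.13 (SE, edgeR adjusted p = 0.0199), the only call among the 10, where 1.53% of all genes were called and 1.31% were called higher. That call was lost when any of the 4 libraries compared was left out (adjusted p from 0.214 to 0.354) and, with the replicate block, had adjusted p = 0.0501. Tep2 had 72.8 and 81.3 CPM in Lpp[TS]>Rheb and 82.8 and 84.1 CPM in Lpp[TS]>Lsp2, against 57.7 and 53.1 CPM in Lpp[TS]>w1118. Its log2 differences of 0.53 ± 0.13 for either line had adjusted p = 0.144 for Lpp[TS]>Rheb and 0.833 for Lpp[TS]>Lsp2.

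Among the Lpp[TS] lines NimB5 was highest in Lpp[TS]>Rheb, at 18.8 and 17.5 CPM, against 7.33 and 6.43 CPM in Lpp[TS]>w1118. The log2 difference of 1.45 ± 0.38 did not pass (adjusted p = 0.178). NimB4 had 10.3 and 11.3 CPM in Lpp[TS]>Rheb, against 6.61 and 7.01 CPM in Lpp[TS]>w1118 (log2 0.72 ± 0.31, adjusted p = 0.416). In Lpp[TS]>Lsp2, 0 of 10 genes were called by edgeR, where 0.0166% of all genes were called, while 2 (Tep2 and Tep4) had an unadjusted p under 0.05 and DESeq2 called 1. Leaving out replicate 1 of Lpp[TS]>Lsp2 keeps 1 library of that line, and calls then rose over all genes as well as among the 10. Between replicate 1 and replicate 2 of Lpp[TS]>Lsp2, RNA levels differed over the whole transcriptome. Chi-square per degree of freedom, a measure of difference beyond counting noise, was 143 there, the largest of 63 replicate pairs. Replicate 1 and replicate 2 had 50.2 and 29.6 CPM of NimB2, 9.89 and 4.50 CPM of NimB5 and 19.6 and 9.67 CPM of NimC1. Sr-CI was at 19.6 and 11.5 CPM in these replicates, but Tep2 was at 82.8 and 84.1 CPM. Their ovary markers summed to 260 to 419 CPM and their lamellocyte markers to 55 to 116 CPM. Their plasmatocyte markers summed to 531 to 636 CPM, against 459 to 481 CPM in Lpp[TS]>Rheb and 473 to 491 CPM in Lpp[TS]>w1118. Both comparisons share the Lpp[TS]>w1118 libraries. No difference in translational efficiency was called. In the fit without the pairing, 0 of 10 genes were called in either line by edgeR or DESeq2. There 0 had an unadjusted p under 0.05, and 0% of all genes were called by edgeR. Log2 differences ran from -0.66 to 0.40 in Lpp[TS]>Rheb and from -0.35 to 0.66 in Lpp[TS]>Lsp2. With the replicate block, which keeps the fractions of a powder together, edgeR called 0 of 10 in either line. In that fit 2 genes had an unadjusted p under 0.05 in Lpp[TS]>Lsp2 and 0 in Lpp[TS]>Rheb.

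The transcripts differed in how they were spread over ribosomes. NimB5 was lower in polysomes than in total RNA in all 3 tables, and NimB2 was higher in the tables of the allele lines. The p-values between fractions come from fits without the pairing of fractions from a powder, unless the replicate block is named. Over the 4 groups at 15 d, NimB2 in polysomes relative to total RNA was at a log2 ratio of 1.24 ± 0.10 (SE, edgeR adjusted p = 7.97e-12) and NimB5 at -1.33 ± 0.10 (adjusted p = 1.24e-12). Of the 10 genes 5 were called, 3 higher and 2 lower, where 82.3% of all genes were called, 41.8% higher and 40.5% lower, so that a call is the rule in this comparison. DESeq2 called 9 of the 10, and 8 were called without replicate 3 of Thor[2];Lsp2[B14]. Over all genes, calls ran from 8972 to 9992 over the alternatives, against 9105 in the main fit, and nothing is read from these counts. NimB4 was also higher (0.51 ± 0.09, adjusted p = 8.86e-06) and NimC1 lower (-0.47 ± 0.12, adjusted p = 0.000687) in polysomes, although for NimC1 the mean log2 ratio was -1.70 in Thor[2];Lsp2[A10] and 0.11 in Lsp2[A10]. Sr-CI, at 0.21 ± 0.09 (adjusted p = 0.0452), was called in 8 of 17 alternatives and was at 0.02 with scaling by library totals, where the all-gene median was -0.14, against 0.05 otherwise.

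The ratio of NimB5 was below 1 in nearly every sample. Polysomes held 3.51, 2.32 and 3.11 CPM of NimB5 in Thor[2];Lsp2[A10], 3.88, 4.82 and 4.11 CPM in Thor[2];Lsp2[B14], 2.87, 3.43 and 2.84 CPM in Lsp2[A10] and 2.21, 2.95 and 3.34 CPM in Lsp2[B14], against 4.92 to 15.6 CPM in total RNA of these groups. Over the 24 samples the log2 ratio ran from -2.58 to 0.22, and replicate 2 of Lpp[TS]>Lsp2 was the only one above 0. For NimB2 the mean log2 ratio was 1.48 ± 0.51 in Lsp2[A10] and 1.78 ± 0.19 in Lsp2[B14] (SD, n = 3 each), but 0.40 ± 0.49 with Thor[2];Lsp2[A10] and 0.60 ± 0.09 with Thor[2];Lsp2[B14]. NimB4 had a mean log2 ratio of -0.52 ± 0.05 in Thor[2];Lsp2[A10] libraries and one of -0.17 ± 0.13 in Thor[2];Lsp2[B14], against 0.92 ± 0.23 in Lsp2[A10] and 1.05 ± 0.10 in Lsp2[B14], so its mean over the 4 groups describes none of them.

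**Figure D5:**
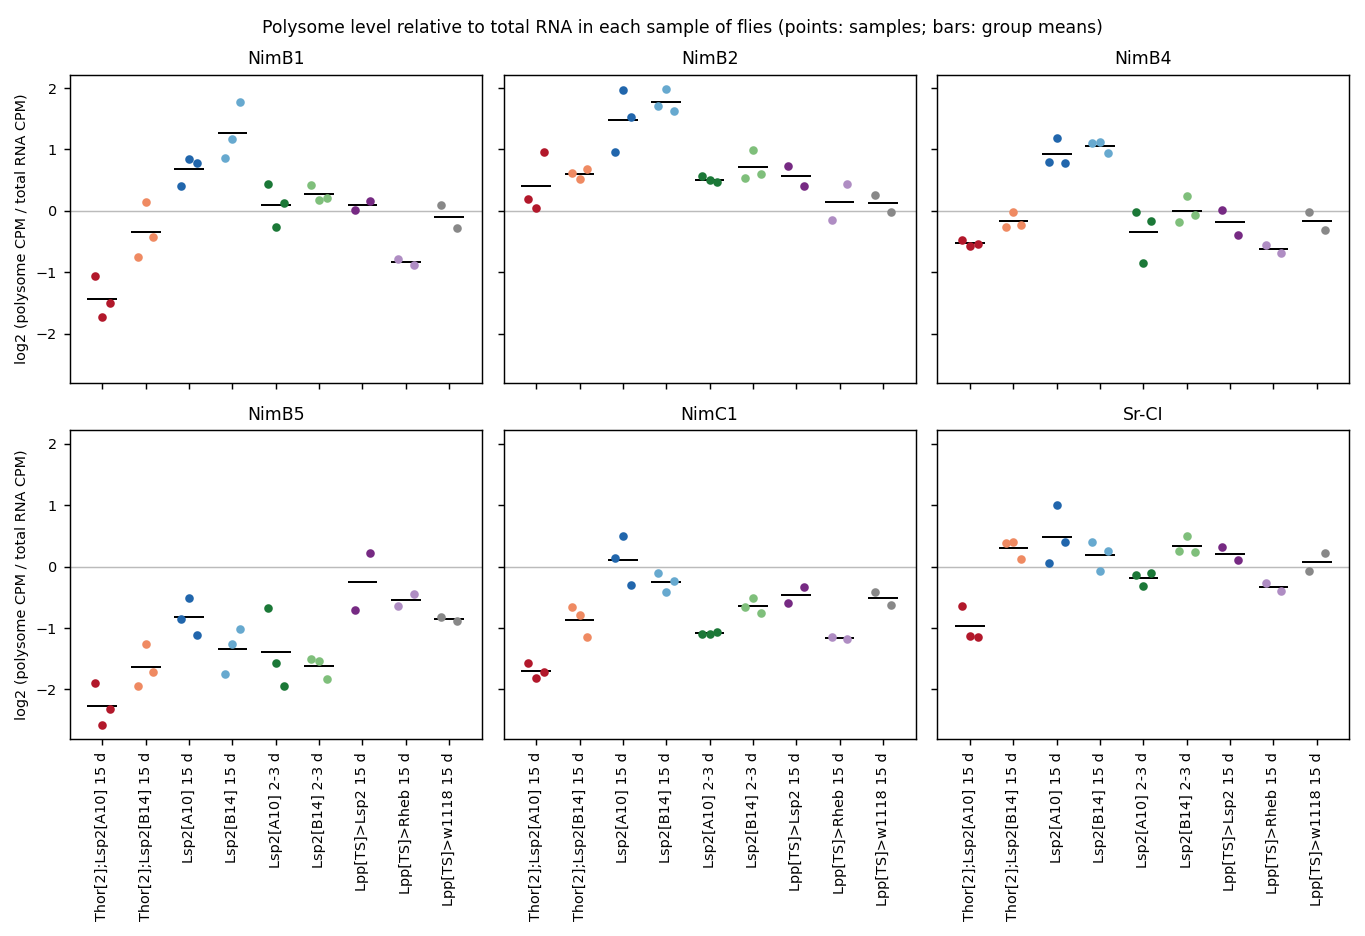
Log2 ratio of polysome CPM to total RNA CPM (y axis) of 6 genes in each of the 24 samples of flies, by group (x axis); points are samples and bars group means of 3 (allele lines) or 2 (Lpp[TS] lines). NimB5 is below 0 in all samples but 1, and NimB1, NimB4, NimC1 and Sr-CI are lowest or among the lowest in Thor[2];Lsp2[A10].

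NimB2 was called in young flies as well, and NimB5 and NimC1 in every table. In young flies NimB2 was at 0.73 ± 0.14 (adjusted p = 0.000308) and NimB5 at -1.41 ± 0.15 (adjusted p = 4.36e-07), NimC1 at -0.75 ± 0.11 (adjusted p = 2.06e-05), Tep4 at -0.24 ± 0.11 (adjusted p = 0.0432), Tep3 at 0.23 ± 0.08 (adjusted p = 0.0191) and NimB1 at 0.30 ± 0.13 (adjusted p = 0.047, and 0.058 with the replicate block), 6 of 9, 3 in each direction, where 81.6% of all genes were called, 40.3% higher and 41.4% lower. NimB1 was kept in 4 and Tep4 in 5 of 11 alternatives, and 3 genes were called without replicate 1 of young Lsp2[A10]. In the Lpp[TS] lines 3 of 10 were called, all lower, where 48.5% of all genes were called, 24% higher and 24.6% lower (49.4% of calls higher, 66.7% with library totals): NimC1 (-0.91 ± 0.21, adjusted p = 0.00538), NimB5 (-0.77 ± 0.19, adjusted p = 0.00823) and Tep1 (-1.53 ± 0.52, adjusted p = 0.0352), the last on few counts, and with the replicate block 5 were called. NimB2 was not called there, at 0.13 ± 0.23 (adjusted p = 0.67). Leaving out replicate 1 of Lpp[TS]>Rheb or Lpp[TS]>w1118 left 1 call, and leaving out replicate 1 of Lpp[TS]>Lsp2 gave 6.

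Relative to monosomes, polysomes at 15 d held more of Sr-CI (log2 0.66, adjusted p = 2.58e-05), NimB4 (0.60, adjusted p = 0.000318), Tep4 (0.58, adjusted p = 1.07e-05), NimC1 (0.53, adjusted p = 0.0042) and NimB2 (0.50, adjusted p = 1.02e-05), 5 of 10 where 37.7% of all genes were called, 20.1% higher and 17.5% lower (53.5% of calls higher, 19.4% with library totals). The Thor[2];Lsp2[A10] samples went against this average, since there the log2 ratio of NimB2 was -1.29, -1.10 and -0.41, against 0.26 to 0.96 in the samples of the other 3 groups. NimC1 was at -1.12, -0.36 and 0.39 in Thor[2];Lsp2[A10], and its call was lost with library totals (0.27, adjusted p = 0.134). In young flies NimB1 (-0.55, adjusted p = 0.00936) and Tep3 (-0.47, adjusted p = 0.00195) were lower in polysomes than in monosomes, 2 of 9 where 43.3% were called, 21.9% higher and 21.3% lower (50.7% of calls higher, 72.2% with library totals). In the Lpp[TS] lines NimB2 (1.02, adjusted p = 0.0107) was the only one called higher, where 26.6% were called, 14.8% higher and 11.8% lower. With the replicate block 5 were called there, while calls over all genes rose from 3330 to 5464.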

How the data were processed

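What the authors deposited are 3 tables of unnormalized read counts, 1 column for each library. Per the submitters' processing notes, fastp 0.23.2, Bowtie2 2.3.4.1, STAR 2.2.1, featureCounts 1.6.0 and R 4.2.0 were used with build BDGP6. Their roles, the annotation and the strand setting are not given in the sources used here. The 10 genes and all lists were chosen with earlier results of these data known.

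Changes were fitted in edgeR 4.0.16 under R 4.3.3 (default expression filter, trimmed mean of M-values scaling, robust quasi-likelihood fit, prior count 0.125). P-values were adjusted over all genes tested by the Benjamini-Hochberg method, with a threshold of 0.05. Translational efficiency is the interaction of fraction (polysome, total RNA) and group. DESeq2 1.42.0 and other settings were alternatives. The fit was tested on simulated counts with known changes. CPM uses library totals, and RPKM the exon lengths of BDGP6.54. From other lists, at most the 3 called genes with the largest change were named. Neighbours were the nearest measured starts, and likeness was the root mean square difference of centred log2 CPM (prior count 0.5).

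Genotype, age and fraction, as labelled, define the groups. Batch cannot be told apart from them, since its entry in the labels restates genotype and fraction. Replicates of a group differed beyond counting noise in all 63 pairs. The fractions of a replicate come from one powder per the labels' protocol and are therefore paired. The main fits of fractions did not use this pairing, and the replicate block was the alternative that did. The residual correlation of polysome and total RNA from a powder had a median of 0.18 over 24 pairs, and that of polysome and monosome 0.19. Equal numbers in groups that differ in genotype or age are not paired. Over 45 correlations, some of them from the same libraries in another fit, values ran from -0.51 to 0.32, and 14 exceeded 0.1. In the Lpp[TS] lines, with 2 replicates, both replicates give the same correlation by construction. Counts from PCR reads are not independent molecules.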

Additional observations from a re-analysis of the deposited data

Results flagged for a closer look

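For 4 of the 10 genes the interaction term of the fit passed the all-gene threshold, which 4.1% of all genes passed, 3.05% upward and 1.04% downward. With 1 replicate left out, it passed for 2 to 4 genes. The term is the log2 change of total RNA with Thor[2] at 15 d in the A10 lines minus that in the B14 lines. It was 1.72 for Tep2, -3.48 for NimB2, 1.11 for Sr-CI and 0.68 for Tep4. The genes had been picked with such differences known, so the term is given as a description and nothing is read from the count. For Tep2 the changes had opposite signs, and NimB2 was lower with Thor[2] in the A10 lines alone.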

How the results depend on the processing

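Of the single-gene values tested, 256 kept their direction and side of the threshold under other scalings, filters, tools and blocks, 16 were lost, 8 were gained and none reversed. Leaving out 1 replicate, 302 kept both, 43 were lost, 6 were gained and 3 reversed. These were NimB2 for polysome over total RNA in the Lpp[TS] lines (-0.0177 without Lpp[TS]>Rheb replicate 2, range -0.0177 to 0.25) and, without Lsp2[A10] 15 d replicate 1, the age change of Tep1 in Lsp2[A10] (-0.34, range -0.34 to 0.70 over replicates left out) and of Tep4 (-0.0091, range -0.0091 to 0.31). NimB4 with age was called in 6 of 12 alternatives in each line and NimB1 in Lsp2[B14] in 8 of 12. The number of genes called moved as follows, and the cause was not tested. DESeq2 called 2 for A10 over B14 without Thor[2], 1 for Lpp[TS]>Lsp2 RNA, 3 for Lpp[TS]>Rheb RNA and 9 for polysome over total RNA at 15 d, where RLE factors also gave 9. The replicate block gave 0 for Lpp[TS]>Rheb RNA, 2 for young translational efficiency, 5 for polysome over total RNA and 5 for polysome over monosome in the Lpp[TS] lines, and changed no other count by over 1.5 times. Fitting only the groups compared gave 4 for Lpp[TS]>Rheb RNA, and library totals 1 for polysome over monosome in young flies.
Leaving out 1 replicate gave 4 to 7 calls for age in Lsp2[B14] (4 without young Lsp2[B14] replicate 3), 1 to 2 for A10 over B14 without Thor[2] (2 without Lsp2[B14] replicate 1), 2 to 4 for the interaction, 0 to 5 for Lpp[TS]>Lsp2 RNA (5 without Lpp[TS]>Lsp2 replicate 1), 0 to 0 for Lpp[TS]>Rheb RNA, 4 to 8, 3 to 6 and 1 to 6 for polysome over total RNA at 15 d, in young flies and in the Lpp[TS] lines, and 0 to 3 for polysome over monosome in the Lpp[TS] lines (0 without Lpp[TS]>Rheb replicate 2 or either Lpp[TS]>w1118 replicate, 3 without either Lpp[TS]>Lsp2 replicate). Where an arm kept 1 library, it was assumed to vary like the other groups.
Over all genes, calls moved by more than 1.5 times for A10 over B14 with Thor[2] (431, from 235 to 846), without Thor[2] (229, 115 to 392), the interaction (424, 197 to 752), young RNA (33, 4 to 139), Lpp[TS]>Lsp2 RNA (2, 1 to 4529) and efficiency (0, 0 to 364), Lpp[TS]>Rheb RNA (184, 1 to 2863) and efficiency (0, 0 to 4), young efficiency (7, 0 to 1589), polysome over total RNA in the Lpp[TS] lines (6211, 4126 to 7357) and polysome over monosome at 15 d (4378, 3489 to 6616) and in the Lpp[TS] lines (3330, 1057 to 5464). Scaling by library totals put the median log2 of all genes at -0.16 and -0.11 for Thor[2] in A10 and B14, at 0.15 and 0.11 for age in A10 and B14, and at -0.31 for polysome over monosome at 15 d. Depth limits Tep1 in every comparison.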

Other observations

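The genes whose levels followed NimB2 most closely over the 12 total RNA libraries at 15 d were sought among the 10354 fitted genes by the smallest root mean square difference of centred log2 CPM. CG33965, on chromosome arm 3L, came closest at 0.314, where NimB2 itself had a root mean square of 1.5 about its mean. It averaged 1.43 CPM in Thor[2];Lsp2[A10] and 13.5 CPM in Thor[2];Lsp2[B14], against 9.47 CPM in Lsp2[A10] and 12.4 CPM in Lsp2[B14]. CG33306 was next at 0.319 and starts 122.1 kb from NimB2 on 2L. It averaged 5.49 CPM in Thor[2];Lsp2[A10] and 79.5 CPM in Thor[2];Lsp2[B14], against 53.6 CPM in Lsp2[A10] and 55.1 CPM in Lsp2[B14]. CG32985 followed at 0.432 with under 2 CPM in each group on average.

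For Tep2 the closest genes were CG4066 (0.179), the phospholipase D gene Pld (0.183) and CG8665 (0.187), with a root mean square of 0.44 for Tep2 itself. CG4066 averaged 31.6 CPM in Thor[2];Lsp2[A10] and 18.6 CPM in Thor[2];Lsp2[B14], against 19.8 CPM in Lsp2[A10] and 27.6 CPM in Lsp2[B14], which is the same criss-cross order. CG7025, whose start is 2.62 kb from that of Tep2, averaged 73.1 CPM in Thor[2];Lsp2[A10] and 79.8 CPM in Thor[2];Lsp2[B14], against 40.0 CPM in Lsp2[A10] and 38.1 CPM in Lsp2[B14], so it was higher with Thor[2] in both lines. For Sr-CI the closest were Sidpn (0.160), NtR (0.171) and the gut protease gene Jon65Aiv (0.179), against 0.518 for Sr-CI itself. The nearest measured neighbours of Sr-CI were both lower with Thor[2]. The adhesion gene ed averaged 64.0 CPM in Thor[2];Lsp2[A10] and 55.4 CPM in Thor[2];Lsp2[B14], against 197 CPM in Lsp2[A10] and 183 CPM in Lsp2[B14].

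By chromosome arm, the share of genes called between A10 and B14 with Thor[2] was 6.88% on 2L, the arm of Thor and of all 10 genes, 5.11% on 2R, 3.91% on 3L, the arm of Lsp2, 2.71% on 3R and 2.6% on X, and 4.17% over these arms. Without Thor[2] the share was 2.15% on 2L and 2.22% over the arms. A reason for the difference between arms was not tested.

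Tep1, at 0 to 32 counts in total RNA, had 103, 41 and 8 counts (10.6, 4.45 and 0.610 CPM) in the monosome libraries of Thor[2];Lsp2[A10], against at most 17 counts and 1.56 CPM in any other monosome library. Its polysome libraries in that group held 4, 3 and 9 counts.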
